A study of Mus musculus with 4 samples.

Results

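The AP-1 transcription factor family was examined by 10 of its genes, which were chosen by name among the 55267 entries of the joined expression table: *Fos*, *Fosb*, *Fosl1* and *Fosl2* of the Fos family, *Jun*, *Junb* and *Jund* of the Jun family, and the related basic leucine zipper genes *Atf3*, *Batf* and *Batf3*. All 10 had an entry of their own, and 7 reached a mean of 1 TPM (transcripts per 1000000, a measure scaled to length and library) over the libraries and were tested.

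AP-1 is a dimer of basic leucine zipper proteins. Jun proteins can pair with themselves or with Fos proteins, whereas Fos proteins need a Jun partner. Many of these genes are immediate early genes, whose transcription responds to growth factors, serum and cell handling without a need for new protein, and whose mRNAs are short-lived. JUNB and JUND often act as weaker activators than JUN or oppose it, ATF3 is a stress-induced factor, and BATF proteins are mainly known from immune cells. In muscle, Fos and Jun genes are known to be expressed early when muscle stem cells (MuSCs) are activated.

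RNA sequencing was performed on cultured MuSCs from skeletal muscle of female mice aged 9 weeks that carried the transgene C57BL/6N(Tg(Pax7-EGFP)Tajb), a green fluorescent reporter driven by *Pax7*. Cells were sorted for the reporter after a first culture step, cultured further, and kept for 6 h in serum-free medium with 200 ng/mL of the soluble BMP receptor BMPR-1A-Fc in both groups. They then received 100 ng/mL BMP6 or the vehicle (4 mM HCl with 0.1% BSA) for 1 h, and 2 libraries represented each group. Per the study's methods, the cells were detached with trypsin and frozen before RNA was isolated. What this harvest did to the levels was not tested. The number of animals behind each replicate was not given in the sources used here, and the labels name each replicate number as a batch, which has 1 library of either group. Where 2 values are given for a group, replicate 1 comes first.

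The libraries held 108 to 112 reads rebuilt from coverage, in units of 1000000. Of 13 tested genes from a list of BMP and SMAD targets, 8 passed the adjusted p, all higher after BMP6, and with the replicate number as a block 12 did, the additional genes being *Id4*, *Smad6*, *Nog* and *Msx1*. Cells expressed *Pax7* at 8.29 to 11.7 TPM and *Myog*, a factor of differentiating myoblasts, at 4400 to 5472 TPM. The fusion gene *Mymk* was at 1722 to 1937 TPM. The cells labelled MuSCs thus carried much mRNA of differentiation at the time of sampling. Markers of other cell types were low except for some of those listed for fibroblasts and for *Pdgfrb* of the pericyte list. Endothelial markers summed to at most 0.298 TPM and immune markers to at most 1.68 TPM, with *Kdr* and *Itgax* listed at 0 in all 4 libraries. Pericyte markers summed to 5.00 to 5.49 TPM, most of it *Pdgfrb* at 4.41 to 4.93 TPM, and Schwann cell markers to 0.386 to 0.601 TPM. Of the fibroblast markers, *Pdgfra* was at 0.0530 to 0.164 TPM and *Dcn* at 0.955 to 1.92 TPM, whereas *Ly6a* was at 18.7 to 24.1 TPM, and *Col3a1* and *Col1a1*, which other mesenchymal cells also make, were the most abundant. Together the list summed to 188 TPM and 123 TPM after BMP6 and to 198 TPM and 147 TPM in controls.

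Promoter sequences are shown for *Junb*, the one gene of the family called after BMP6, and for *Fos* and *Jun*, well-known immediate early genes of the family, which were not called. RefSeq windows on GRCm39, from 250 bases before to 50 bases after the annotated start, matched 9 of the 10 symbols. The windows of *Junb* (chr8:85705328-85705627, minus strand), *Fos* (chr12:85520414-85520713, plus strand) and *Jun* (chr4:94940410-94940709, minus strand) read 5′ to 3′ as follows, with capitals for every match on either strand to GTCT and GGCGCC, both known as SMAD-binding sequences, and to TATAAA, the TATA box.
Junb: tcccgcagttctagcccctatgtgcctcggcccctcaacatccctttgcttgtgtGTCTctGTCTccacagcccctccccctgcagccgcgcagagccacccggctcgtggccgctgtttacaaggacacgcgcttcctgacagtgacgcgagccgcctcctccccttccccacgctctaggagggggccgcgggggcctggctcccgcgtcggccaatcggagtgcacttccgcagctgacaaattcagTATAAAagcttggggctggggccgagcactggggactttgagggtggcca
Fos: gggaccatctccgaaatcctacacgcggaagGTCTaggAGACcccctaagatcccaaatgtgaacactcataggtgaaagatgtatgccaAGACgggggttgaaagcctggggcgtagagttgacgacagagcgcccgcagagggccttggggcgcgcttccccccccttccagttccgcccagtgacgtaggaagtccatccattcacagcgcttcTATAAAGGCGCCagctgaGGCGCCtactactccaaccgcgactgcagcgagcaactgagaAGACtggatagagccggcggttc
Jun: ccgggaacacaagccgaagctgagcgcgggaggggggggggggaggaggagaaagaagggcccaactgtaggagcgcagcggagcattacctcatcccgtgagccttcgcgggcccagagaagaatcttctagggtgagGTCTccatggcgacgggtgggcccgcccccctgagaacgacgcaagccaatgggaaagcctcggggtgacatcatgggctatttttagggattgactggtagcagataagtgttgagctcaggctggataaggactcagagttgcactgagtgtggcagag

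With the annotated start counted as 0, *Junb* held GTCT at -195 to -192 and again at -189 to -186, and TATAAA at 0 to 5. The transcript of *Junb* in the deposited files starts 30 bases downstream of the RefSeq start, and so downstream of that TATAAA. *Fos* held TATAAA at -33 to -28, directly followed by GGCGCC at -27 to -22 and a further copy at -15 to -10, and 4 matches to GTCT. *Jun* held 1 match to GTCT, at -111 to -108, and none to the other sequences. The window of *Junb*, the called gene, held no GGCGCC, and that of *Fos* held 2. Whether such matches have a part in the response to BMP6 was not tested. GTCT occurred in 8 of the 9 family windows and in 88% of the 32851 windows of all genes, GGCGCC in 4 of 9 and in 11.9% of all, and TATAAA in 2 of 9 and in 13.6% of all. The CRE (TGACGTCA, found in 1.79% of all windows), the AP-1 element (TGANTCA, 7.81%) and the CArG box of the serum response element (1.63%) had no full match in any of the 9. Variants of these sequences, and sites more than 250 bases before the start, were not searched for. These absences therefore do not show that a gene lacks such sites. The start of the *Jund* window lies at -1210 relative to the start in the deposited files, and that of *Fosl2* at 671. That of *Atf3* belongs to the nearer of its alternative starts.

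In the control cells the family was dominated by the Jun genes. Mean TPM (± SD, n = 2) was 153 ± 45.2 for *Jund*, 119 ± 4.11 for *Jun* and 114 ± 8.74 for *Junb*, and each of these overlapped its neighbour in this order. *Fos* followed at 34.7 ± 6.49 TPM, below both *Junb* values. *Fosl1* at 7.66 ± 3.02 TPM overlapped *Atf3* at 4.82 ± 2.27 TPM, and *Fosl2* at 2.67 ± 0.521 TPM lay below both *Atf3* values. *Fosb* at 0.151 ± 0.0830 TPM, *Batf3* at 0.0503 ± 0.0711 TPM and *Batf*, which was listed at 0 in both control libraries, fell below the filter. Among the control means of all tested entries, *Jund* stood at percentile 90.5 and *Junb* at 87.7. After BMP6 the order at the top changed: *Junb* exceeded *Jun* and *Jund* in both libraries.

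**Figure D1:**
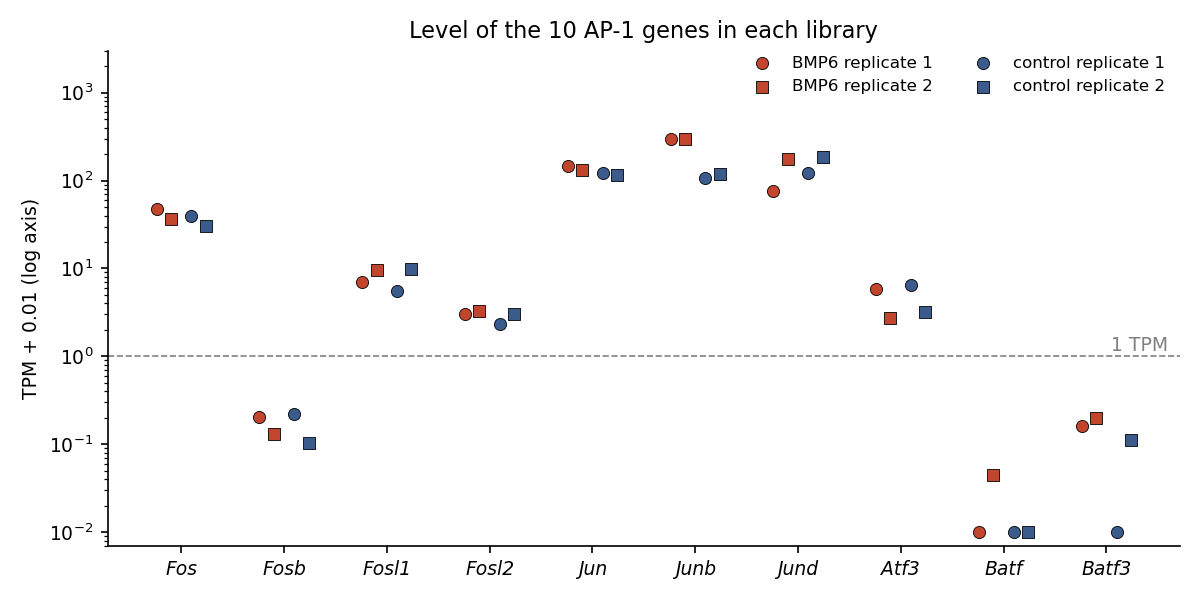
TPM of each of the 10 AP-1 genes in each library, with 0.01 added for the log axis; red marks BMP6, blue control, circles replicate 1 and squares replicate 2. The BMP6 values of Junb, 301 and 297 TPM, lie above both control values, whereas those of Jund, Fos and Atf3 overlap between groups.

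*Junb* rose 2.61-fold after BMP6, and no other gene of the family was called. *Junb*, a single-exon gene on chromosome 8 (chr8:85703539-85705347, minus strand, GRCm39, coordinates of the deposited files), encodes a Jun protein that restrains JUN in many settings. It stood at 301 TPM and 297 TPM after BMP6 and at 108 TPM and 120 TPM in controls. Both BMP6 libraries lay well above both control libraries, and replicates differed little within a group. Mean expression was 299 ± 2.82 TPM (SD, n = 2) after BMP6 and 114 ± 8.74 TPM (n = 2) in controls. The fold change on the TPM + 1 scale was 2.61 (log2 1.39, SE 0.09, 95% interval 1.17 to 1.60), with an adjusted p of 0.0132 by limma, two-sided, over 13128 tested entries. Within the pairs of replicate 1 and of replicate 2, it was higher by 1.47 and 1.30 on the log2 scale. By fold change *Junb* ranked 26th and by p 3rd among all tested entries. In bulk RNA, a change in the number of cells that express a gene and a change in mRNA per cell cannot be told apart. The call was lost when entries with low values were also tested, where the fold change was the same and the adjusted p was 0.297.

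A gene was called when it changed at least 2-fold with an adjusted p under 0.1. Of the 7 tested AP-1 genes, 1 was called higher, against a background of 0.206% of all tested entries, and 0 were called lower, against 0%. With the replicate number as a block, the background of genes called higher was 0.312% and *Junb* was again the only AP-1 gene called. At any fold change, 0.244% of tested entries passed the adjusted p without the block and 1.64% with it, and *Junb* was the one AP-1 gene in either case. The family's median log2 fold change was 0.18, against 0.02 over all tested entries. In the groups' values, 2 of the 7 had both BMP6 libraries above both controls, against 16.6% of all tested entries, and 0 had both below, against 11.6%. Within same-numbered pairs, 4 of 7 were higher in both, against 35.0%, and 2 of 7 lower in both, against 25.7%.

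*Jun*, which encodes the founding Jun protein, is a single-exon gene (chr4:94937271-94940459, minus strand). It stood at 148 TPM and 132 TPM after BMP6 and at 122 TPM and 116 TPM in controls. The groups did not overlap, but they lay close together. The difference was 0.23 on the log2 scale (SE 0.09, 95% interval 0.00 to 0.46, unadjusted p = 0.0487, adjusted p = 1 by limma) and thus did not pass the test. With the block its adjusted p was 0.168. The upper bound of the interval without the block was 1.38-fold, below 2-fold, and rests on 2 libraries a group and on moderated variances.

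*Jund* encodes a Jun protein that many cell types make without stimulation, and is the third single-exon gene of the family (chr8:71151599-71153265, plus strand). Its levels were 75.4 TPM and 176 TPM after BMP6 and 121 TPM and 185 TPM in controls. Groups overlapped, with replicate 1 low in both. The log2 difference was -0.37 (SE 0.40, 95% interval -1.36 to 0.61, adjusted p = 1 by limma), and with the block its SE was 0.12, its unadjusted p 0.0128 and its adjusted p 0.254. It was lower after BMP6 within both pairs, by -0.68 and -0.07 on the log2 scale. In the fit without the block, its log2 difference turned to 0.24 without BMP6 replicate 1 and was -0.07 without control replicate 2, omissions that leave unequal numbers of replicates 1 and 2 in the groups.

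*Fos*, the prototype of immediate early genes, has 4 exons (chr12:85520664-85524047, plus strand). It was measured at 47.5 TPM and 36.7 TPM after BMP6 and at 39.3 TPM and 30.1 TPM in controls. Replicate 1 was the higher in each group, so the groups overlapped although both pairs moved up by nearly the same amount, 0.27 and 0.28 on the log2 scale. The estimate was 0.27 (SE 0.18, 95% interval -0.16 to 0.71, adjusted p = 1 by limma). In the fit with the block the SE fell to 0.07 and the unadjusted p to 0.00568, with an adjusted p of 0.183, which still missed the threshold.

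*Fosl1*, which encodes FRA-1, a Fos protein without the transactivation domain of FOS, stood at 7.05 TPM and 9.58 TPM after BMP6 and at 5.53 TPM and 9.79 TPM in controls. One pair rose by 0.30 and the other changed by -0.03 on the log2 scale, and the estimate of 0.14 (SE 0.27, 95% interval -0.53 to 0.80) did not pass the test. Without BMP6 replicate 2 or control replicate 1 its sign turned, to -0.06 and -0.23. The last of its 4 exons is overlapped over its whole 1055 bases by *Ccdc85b* on the opposite strand, and since the libraries were unstranded, reads there cannot be assigned to either gene alone. Its second exon, outside that overlap, had a mean coverage, unscaled to library size, of 109 and 133 in the BMP6 libraries and 96.2 and 119 in the controls, an order across libraries that differs from that of the gene's TPM.

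*Fosl2*, which encodes FRA-2, stood at 3.04 TPM and 3.24 TPM after BMP6 and at 2.30 TPM and 3.04 TPM in controls. The groups overlapped narrowly, since the lower BMP6 value and the higher control value were nearly the same. The log2 difference was 0.18 (SE 0.16, 95% interval -0.22 to 0.58) and did not pass the test.

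*Atf3*, which encodes a stress-induced partner of JUN proteins, stood at 5.80 TPM and 2.71 TPM after BMP6 and at 6.42 TPM and 3.21 TPM in controls. The groups overlapped, and replicate 1 was about as far above replicate 2 with BMP6 as without. The log2 difference was -0.15 (SE 0.37, 95% interval -1.07 to 0.76), which did not pass the test. It was lower within both pairs, by -0.13 and -0.18, and in the fit without the block it changed sign without BMP6 replicate 2 (0.28) or control replicate 1 (0.25). *Atf3* was quantified as 2 transcripts that differ in their first exon. The one from the nearer start had 3.24 TPM and 2.01 TPM after BMP6 and 5.68 TPM and 1.75 TPM in controls, and the one from the distant start had 2.56 TPM and 0.700 TPM after BMP6 and 0.736 TPM and 1.46 TPM in controls. Because these share 3 exons, how reads were divided between them rests on few bases. For neither transcript did the groups separate.

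**Figure D2:**
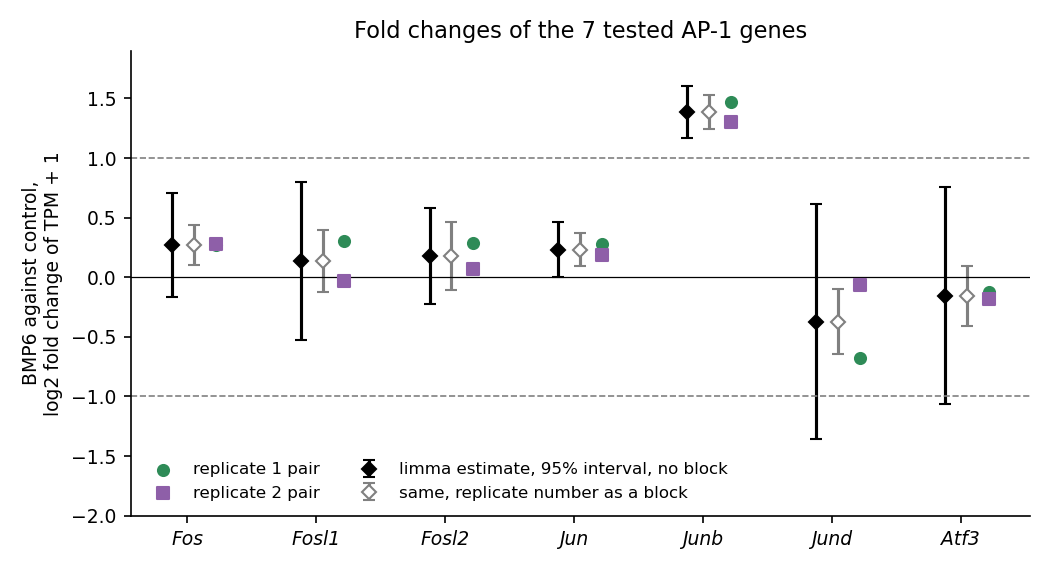
Log2 fold change of TPM + 1, BMP6 against control, for the 7 tested AP-1 genes. Black diamonds show the limma estimate with its 95% interval without a block, grey diamonds the same with the replicate number as a block, green circles and purple squares the pairs of replicates 1 and 2, and dashed lines a change of 2-fold; Junb alone lies beyond the upper dashed line, at 1.39.

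The upper bounds of the 95% intervals were below 2-fold for all 6 tested genes that were not called, from 1.38-fold for *Jun* to 1.74-fold for *Fosl1*. The lower bounds were above 0.5-fold except for *Jund* (0.390-fold) and *Atf3* (0.477-fold). With the block these lower bounds were 0.640-fold and 0.754-fold. The blocked intervals rest on 2 pairs and on variances moderated by those of all tested entries. That of *Jund*, -0.64 to -0.10 on the log2 scale, held neither of its pair differences, -0.68 and -0.07. A 2-fold decrease is therefore not taken as excluded.

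The remaining genes were not tested. *Fosb*, a Fos family member that is typically silent without stimulation, was at 0.193 TPM and 0.121 TPM after BMP6 and at 0.209 TPM and 0.0919 TPM in controls, and the groups overlapped. *Batf3* was at 0.149 TPM and 0.189 TPM after BMP6 and at 0 TPM and 0.101 TPM in controls. *Batf* was at 0.0347 TPM in BMP6 replicate 2 and was listed at 0 in the others. Behind these values stood at most 48.3 rebuilt reads for *Fosb*, 9.10 for *Batf3* and 2.00 for *Batf*, so differences among the libraries were not detectable at this depth. For comparison, *Junb* rested on 12427 to 34097 rebuilt reads per library.

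The makeup of the Jun family shifted with *Junb*. Since TPM is scaled to length, the 3 genes can be summed. Their sum was 524 TPM and 605 TPM after BMP6 and 350 TPM and 421 TPM in controls. *Junb* made up 57.4% and 49.0% of that sum after BMP6 and 30.7% and 28.5% in controls, a difference of 23.6 percentage points between means. The groups did not overlap, but with 2 libraries each an exact two-sided permutation test gives p = 0.333, the smallest it can give. The ratio of *Junb* to *Jun* was 2.03 and 2.25 after BMP6 and 0.884 and 1.04 in controls. The share of *Jund* was 14.4% and 29.1% after BMP6 and 34.6% and 44.0% in controls, lower by -17.5 percentage points between means, and did not overlap (p = 0.333 by the same exact permutation test). The share of *Jun* was 28.2% and 21.8% after BMP6 and 34.7% and 27.5% in controls, lower within both pairs but overlapping between groups. As parts of one sum, the shares of *Jund* and *Jun* fall when *Junb* rises, so they are not separate results. In TPM, *Jund* overlapped between groups but was itself lower after BMP6 within both pairs, by -45.7 and -8.62 TPM. *Jun* was higher after BMP6 within both pairs.

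The Fos family summed to 57.8 TPM and 49.7 TPM after BMP6 and to 47.4 TPM and 43.1 TPM in controls, an order of magnitude below the Jun family. *Fos* made up 82.2% and 73.9% of it after BMP6 and 83.0% and 70.0% in controls, so its share followed the replicate number and overlapped between groups. Jun family mRNA exceeded Fos family mRNA 9.07- and 12.2-fold after BMP6 and 7.40- and 9.77-fold in controls. These values are mRNA levels and say nothing of protein or of dimers.

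**Figure D3:**
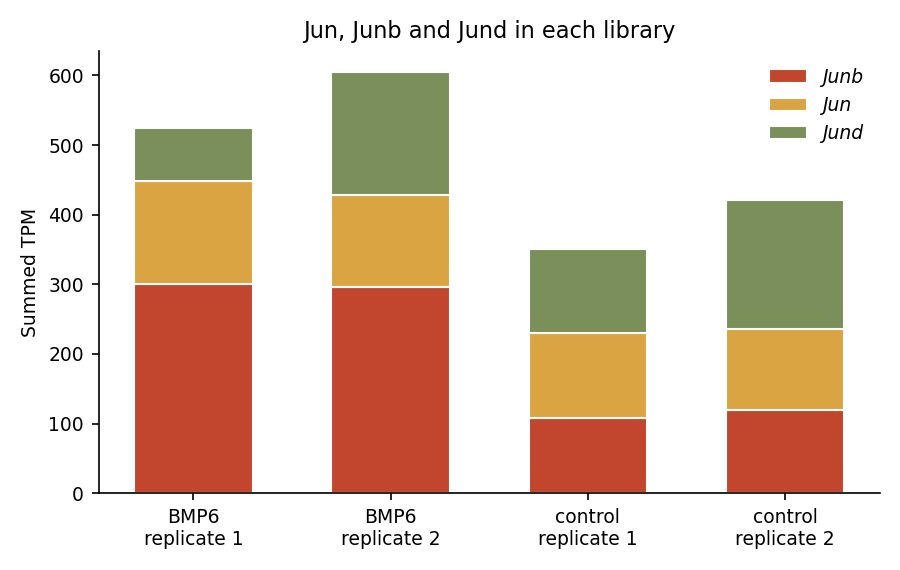
Summed TPM of Junb (red), Jun (yellow) and Jund (green) in each library, with bars starting at 0. The Junb part takes 57.4% and 49.0% of the bar in the BMP6 libraries and 30.7% and 28.5% in the controls, and the green Jund part is lowest in BMP6 replicate 1.

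The AP-1 genes also differed between the replicate numbers. In the fit with both terms, 4 of the 7 tested genes differed between replicates 1 and 2 at an adjusted p under 0.1, against a background of 19.8% of all tested entries. *Jund* was higher in replicate 2 by 0.91 on the log2 scale (adjusted p = 0.00309 by limma) and *Fosl1* by 0.56 (adjusted p = 0.0182). *Atf3* was lower in replicate 2, by -0.85 (adjusted p = 0.00312), and so was *Fos*, by -0.37 (adjusted p = 0.0181). *Junb*, *Jun* and *Fosl2* did not pass, with 0.07, -0.12 and 0.18. The summed fibroblast markers were also higher in both libraries of replicate 1. The summed heat shock genes were lower there, with 5592 TPM and 5732 TPM in BMP6 and control replicate 1 against 6319 TPM and 6613 TPM in replicate 2. The most abundant of these, *Hspa8*, followed the sum, at 2869 TPM and 3040 TPM against 3360 TPM and 3624 TPM. Not every gene of the list did, as *Hspa1b* was at 3.81 TPM and 5.24 TPM against 3.78 TPM and 4.16 TPM. The part of both lists in the replicate differences was not tested.

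**Figure D4:**
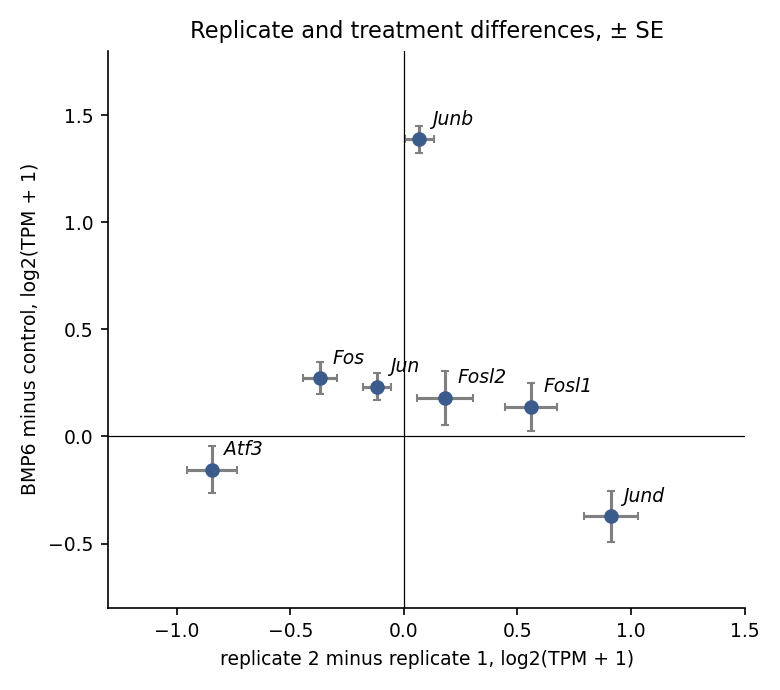
Difference between replicates 2 and 1 (x axis) and between BMP6 and control (y axis) for the 7 tested AP-1 genes in log2(TPM + 1), with SE bars from the fit that holds both terms. Junb lies high and near 0 on the x axis, whereas Jund and Atf3 lie far out to either side at 0.91 and -0.85.

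The family genes share structural features with each other to a varying degree. The 3 Jun genes consist of 1 exon, while the others have 3 to 5. *Jund* and *Junb* transcripts are rich in G and C, with 67.2% and 62.6% against a median of 50.2% over 10488 tested genes with an annotated 3′ UTR, and *Fos* had 51.9%. *Jund*, with the highest content in the family, was also the gene with the largest replicate difference, 0.91 on the log2 scale. *Junb* differed by 0.07 between replicates, and *Atf3*, with a content of 52.2%, by -0.85. The part of base composition in these differences was not tested. On chromosome 12 *Fos* and *Batf* lie 209.4 kb apart, and on chromosome 1 *Atf3* and *Batf3* lie 61.4 kb apart, yet in each of these pairs one gene was expressed and the other near 0. No other gene of the annotation shared a stretch of 100 bases at 95% identity with *Fos*, *Fosb*, *Junb*, *Atf3* or *Batf*. For *Fosl1*, *Fosl2*, *Jun*, *Jund* and *Batf3* the matches were antisense genes at the same place. The antisense gene *Junos*, which overlaps *Jun* by 512 bases, reached 1.64 TPM at most.

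AU-rich elements built on the pentamer AUUUA are a known mark of short-lived immediate early mRNAs, and the sequences are shown for the 3 genes whose promoters are given above. Each is the stretch of 30 bases of the 3′ UTR with the most copies of ATTTA, written as DNA in the sense of the mRNA, with each copy in capitals. It lies at chr8:85703768-85703797 (minus strand) in *Junb*, at chr12:85523864-85523893 (plus strand) in *Fos* and at chr4:94937447-94937476 (minus strand) in *Jun*, all on GRCm39 and within annotated exons.
Junb: catattgaatataatatatttgtgtATTTA
Fos: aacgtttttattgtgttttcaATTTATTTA
Jun: gtgatcATTTAtaatcataggaaagATTTA

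In *Fos* the copies overlap by 1 base. Over the whole 3′ UTR, ATTTA occurred 4 times in *Fos* and in *Jun*, 2 times in *Junb* and 1 time in *Jund*. Per kb this came to 4.91 in *Fos*, 4.12 in *Junb*, 3.24 in *Jun* and 1.88 in *Jund*, against a median of 1.37 over the tested genes. The pentamer was in 8 of the 10 family genes and in 72.8% of the tested genes. It was absent from *Batf* and *Batf3*. A match of these letters is a description and not evidence of decay.

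Other genes that work with AP-1 were examined as lists. Among basic leucine zipper partners, 0 of 20 tested genes passed the adjusted p without the block and the median log2 fold change was 0.01. The most abundant were *Atf4*, a stress-response factor, with 123 TPM and 84.3 TPM after BMP6 and 132 TPM and 121 TPM in controls, and *Nfe2l2*, the oxidative stress factor NRF2, with 70.0 TPM and 80.0 TPM after BMP6 and 68.6 TPM and 80.9 TPM in controls. With the block 1 gene passed, *Mafk*, a small MAF protein, at 17.7 TPM and 18.1 TPM after BMP6 and 11.5 TPM and 11.1 TPM in controls (limma: adjusted p = 0.0132 blocked and 0.360 without).

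Upstream of AP-1, 0 of 27 tested kinases and serum response factor inputs passed, with a median of 0.08. *Map2k1* and *Map2k2*, which encode the kinases that activate ERK, were the most abundant at 163 to 179 TPM and 109 to 130 TPM. Of the genes for turnover and cofactors of JUN and FOS, 0 of 12 passed, with a median of -0.06, and *Cops5*, which encodes the JUN-binding subunit of the COP9 signalosome, was at 205 to 217 TPM in all libraries.

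Among known AP-1 target genes, 0 of 12 tested passed without the block, and the median log2 fold change was -0.05. The most abundant, *Spp1* (osteopontin) and *Vim* (vimentin), were at 473 to 615 TPM and 375 to 414 TPM. With the block 1 gene passed, *Hmox1*, which encodes haem oxygenase, at 251 TPM and 217 TPM after BMP6 and 288 TPM and 295 TPM in controls (-0.32 on the log2 scale, with a blocked adjusted p of 0.0769 by limma).

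Of the other immediate early genes, 3 of 13 tested passed without the block, all higher, and the list's median log2 fold change was 0.08 against 0.02 over all tested entries. *Arc*, known from neurons as a synaptic plasticity gene, was at 5.87 TPM and 7.63 TPM after BMP6 and 1.40 TPM and 2.03 TPM in controls (log2 fold change 1.51, SE 0.19, adjusted p = 0.0963, limma). *Dusp1*, which encodes a phosphatase that inactivates MAP kinases, was at 182 TPM and 180 TPM after BMP6 and 90.6 TPM and 104 TPM in controls (0.90, SE 0.10, adjusted p = 0.0590). *Ier3* was at 23.1 TPM and 22.4 TPM after BMP6 and 10.5 TPM and 11.4 TPM in controls (0.99, SE 0.12, adjusted p = 0.0721). On the TPM + 1 scale *Arc* alone reached the 2-fold threshold and counted as called. *Ier3* lay just short of it on that scale, with mean TPM of 22.7 after BMP6 and 10.9 in controls. In contrast *Egr1*, which like *Fos* is a classical serum response gene, was at 66.5 TPM and 58.4 TPM after BMP6 and 75.6 TPM and 66.0 TPM in controls, and did not pass (-0.18, SE 0.12). With the block *Klf4* (0.57) and *Myc* (-0.45) passed as well, so 5 of 13 did. Without BMP6 replicate 2 only 1 gene of the 5 lists described so far passed, and without control replicate 1 none did.

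**Figure D5:**
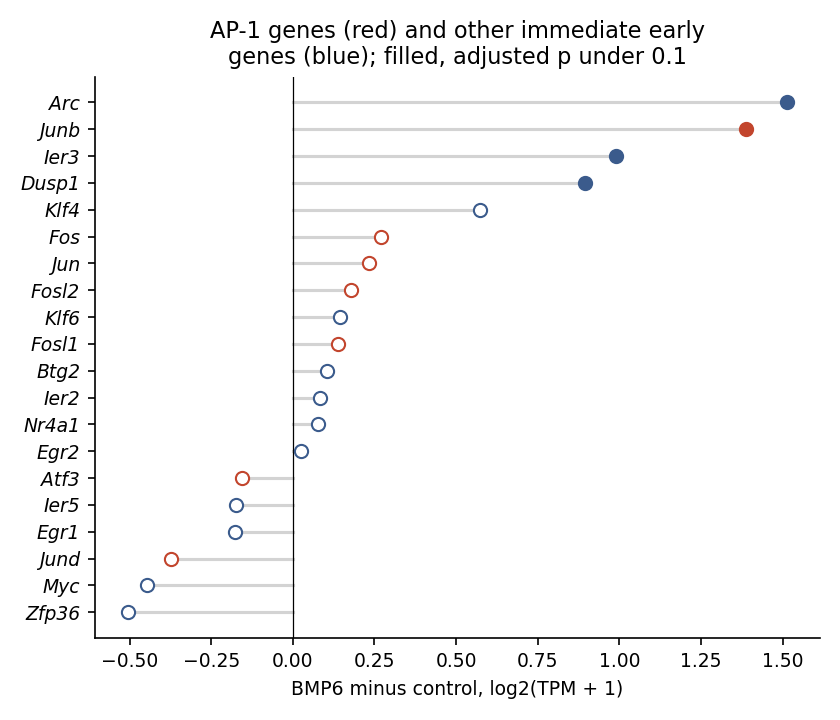
Difference between BMP6 and control in log2(TPM + 1) for the 7 tested AP-1 genes (red) and 13 other immediate early genes (blue), in the order of the difference. Filled points passed an adjusted p under 0.1; Junb lies with Arc, Ier3 and Dusp1 at the top, and Fos, Jun and Egr1 lie between -0.18 and 0.27 as open points.

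Heat shock genes, which respond to cell handling as many AP-1 genes do, gave 0 of 10 past the test and a median log2 fold change of -0.01 between BMP6 and control. Of the myogenic genes, 0 of 12 passed without the block, with a median of -0.07. Within both pairs 8 of 12 were lower, against 25.7% of all tested entries, a count that was not tested. With the block 1 passed, *Des*, which encodes the muscle intermediate filament desmin, at 952 TPM and 807 TPM after BMP6 and 1120 TPM and 955 TPM in controls (-0.24 on the log2 scale, with a blocked adjusted p of 0.0312 by limma).

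The genes whose values over the 4 libraries were most like those of *Junb* were sought by the Euclidean distance of log2(TPM + 1) after each gene's mean was subtracted. Among the 5 nearest were *Wnt9a* (distance 0.161), *Gse1* (0.237), *Snai1* (0.263) and *Id2* (0.266). The log2 fold changes of these 4 ran from 1.26 to 1.37, beside 1.39 for *Junb*, a likeness that follows from choosing them by distance. *Gse1* was at 2.40 TPM and 2.79 TPM after BMP6 and 0.323 TPM and 0.714 TPM in controls. At such levels the TPM + 1 scale understates a fold change. It did not pass the test (adjusted p = 0.167 by limma). *Snai1*, a repressor of the Snail family, was at 134 TPM and 103 TPM after BMP6 and 43.8 TPM and 46.3 TPM in controls. *Id2*, an inhibitor of basic helix-loop-helix factors and a BMP target, was at 569 TPM and 447 TPM after BMP6 and 202 TPM and 219 TPM in controls. No AP-1 gene was among these 5.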

How the data were processed

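MuSC libraries (2 BMP6, 2 control) were grouped by their labels. Per the study's methods, unstranded Smart-seq2 cDNA without molecular identifiers was sequenced, and the authors used STAR 2.7.11a, SAMtools 1.17 and StringTie 2.2.1 on GRCm39. The authors deposited TPM and FPKM per gene and, per library, signal as coverage per transcript and exon. No counts were used here. Reads were rebuilt as coverage times length over a read length of 100 bases, and came to 111, 108, 112 and 109 (in units of 1000000) for BMP6 replicates 1 and 2 and control replicates 1 and 2. They are not independent molecules.

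The test was limma 3.58.1 (R 4.3.3) on log2(TPM + 1), two-sided, with a mean-variance trend, without a block, over the 13128 entries whose mean TPM reached 1, with Benjamini-Hochberg adjustment. A call needed a 2-fold change and an adjusted p under 0.1. Fold changes on this scale understate those of low genes. The study's rule that drops names ending in os, which would remove *Fos*, was not applied. Steps were tested on simulated data. The members, lists and tests were chosen with earlier results of these data known, and the search for ATTTA was added after the values were seen. All 10 members are named. From each list, genes past the adjusted p, the 2 with the highest mean TPM and those past the test only with the block are named, as are the 5 genes nearest to a called member, except that a few results are not reported here.

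Replicate numbers are batches in the labels, shared by a BMP6 and a control library, so these are paired. Across genes, the correlation between the deviations from the group mean in libraries of 1 number was 0.563. P-values measure the spread between these libraries, with the variance of each entry moderated by that of all tested entries. Alternatives were another pseudocount, filter, normalization, variance model, threshold or unit, the block, voom on rebuilt reads, and each library left out. Overlaps, copies (BLAST 2.17.0+) and 3′ UTRs came from GENCODE M39 and promoters from RefSeq. Proteins were not used here.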

Additional observations from a re-analysis of the deposited data

Results flagged for a closer look

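*Batf3*, which fell below the filter and entered no test, was at 0.149 TPM and 0.189 TPM in the BMP6 libraries (mean 0.169 TPM) and at 0 TPM and 0.101 TPM in the controls. It is listed because both BMP6 values exceeded both controls in a gene outside the tested set. It rested on 7.5 and 9.1 rebuilt reads after BMP6 and on 0 and 5.00 in controls. Groups of 2 libraries were too small to look for outlying samples.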

How the results depend on the processing

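*Junb* was higher after BMP6 in all 16 alternatives, with log2 fold changes from 1.31 to 1.46, and was called in each except the test of all entries without a filter on low values (log2 fold change 1.39, adjusted p = 0.297), where 0 AP-1 genes were called. In that test 55267 entries were adjusted together. With the replicate block the log2 fold change of *Junb* was again 1.39 (adjusted p = 1.77e-05), and the block changed no call of an AP-1 gene. No AP-1 gene was called lower in any setting. Without 1 library each, where the lone library is assumed to vary like the others, 1 AP-1 gene was called in each case, the log2 fold change of *Junb* ran from 1.31 to 1.46 and the difference in its share of the Jun family from 19.4 to 27.8 percentage points. Over these same omissions, in the fit without the block, the log2 difference ran from -0.98 to 0.24 for *Jund*, from -0.23 to 0.50 for *Fosl1* and from -0.59 to 0.28 for *Atf3*. That of *Jund* turned to 0.24 without BMP6 replicate 1. Those of *Fosl1* turned to -0.06 without BMP6 replicate 2 and -0.23 without control replicate 1, and those of *Atf3* to 0.28 and 0.25 without the same libraries. None of these was called.

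The number of genes of the 5 AP-1 related lists past the adjusted p, 3 in the main test, was 0 without the filter, 0 without the variance trend, 0 at an adjusted p under 0.05, 1 with voom on rebuilt reads, 7 with the replicate block and 7 with voom and the block, and ran from 0 to 2 with 1 library left out. Their causes were not tested.

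With 2 libraries a group, changes of the size estimated for *Fos* and *Jun* did not pass the adjusted p in any setting, and those of *Fosb*, *Batf* and *Batf3* were not testable. What differed between the preparations of replicates 1 and 2 is not given in the sources used here. Overlapping antisense genes limit *Fosl1*, *Fosl2*, *Jun*, *Junb*, *Jund* and *Batf3*.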
